A study of Mus musculus with 6 samples.

Results

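Adamts14, Ccl9, Ociad2 and Trib2 are 4 of 55450 annotated genes in a study of the RNA deaminase ADAR2 in mouse Th17 cells. They were named from earlier results on the same libraries, selected on their low values with active ADAR2 relative to the empty vector, and were found by their GENCODE vM21 gene names. That comparison chose them, so its values for the 4 genes are a description, given without a test. Ribosome-depleted RNA was sequenced from 6 cultures in 3 groups of 2. The groups were cells with the active enzyme (ADAR2 WT), cells with a form labelled enzymatically dead (ADAR2 E396A), and cells with the empty MSCV vector. All cultures started as naive CD4+ T cells of wild-type mice aged 8 to 12 weeks from an SPF facility. They were activated with anti-CD3ε at 0.25 µg/mL and anti-CD28 at 1 µg/mL, in TGF-β at 0.1 ng/mL and IL-6 at 20 ng/mL. An MSCV retrovirus was given 24 h after activation, and the cells were kept for another 48 h in TGF-β at 0.3 ng/mL and IL-6 at 20 ng/mL, so that they were collected at 72 h. The cells came from 2 mice. Every group holds 1 library from each mouse (n = 2), and the mice are named donor A and donor B. The 6 libraries held 16496328 to 21897166 reads in genes.

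ADAR2, encoded by Adarb1, turns adenosine into inosine in double-stranded RNA. Adarb1 was 5.35-fold higher with ADAR2 WT and 4.37-fold higher with ADAR2 E396A than with the empty vector, and reads of the introduced and the endogenous gene cannot be separated. Its log2 level was 0.29 higher (SE 0.07) with ADAR2 WT than with ADAR2 E396A, which did not pass limma's test (adjusted p = 0.161). The files hold transcript abundance, and editing was not measured. All 6 T cell markers and all 6 Th17 markers on the lists used here were detected well enough to be tested. None of the T cell markers passed between constructs in the main limma fit or with edgeR or DESeq2. Limma on only the 4 libraries of ADAR2 WT and the empty vector called Cd3d and Cd3g (adjusted p = 0.00316 and 0.000831). In ADAR2 WT against the empty vector 4 of the 6 had an unadjusted limma p under 0.05, against 14.1% of all genes, with log2 values of -0.30 for Cd3d, -0.30 for Cd3g, -0.21 for Cd3e and -0.20 for Cd4. They were lower with ADAR2 WT like the 4 genes described here, though by less, and their part in those lower values was not tested. Against ADAR2 E396A, 3 of the 6 T cell markers had an unadjusted limma p under 0.05, against 12.4% of all genes. The median log2 value of the 6 there was -0.14, and 4 of the 6 were negative. The summed Th17 markers stood at 24922 and 48547 normalized counts with ADAR2 WT, 16994 and 64092 with ADAR2 E396A, and 20378 and 35515 with the empty vector, in donors A and B in that order. All donor B libraries were thus above all donor A libraries, and none of the 6 genes passed with limma in any comparison of constructs (4 at an unadjusted p under 0.05 in ADAR2 WT against the empty vector, and Rora called by DESeq2). Of the 6 Th17 markers 3 had an unadjusted limma p under 0.05 in ADAR2 WT against ADAR2 E396A, against 12.4% of all genes. Their median log2 value there was -0.22, with 4 of the 6 negative.

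The 4 genes work in separate processes. Adamts14 encodes a secreted metalloprotease that, like its closest relatives Adamts2 and Adamts3, cuts the amino-terminal propeptide from fibrillar procollagens outside the cell. Ccl9 encodes a mouse CC chemokine, a secreted attractant that signals through the receptor Ccr1 on myeloid and other leukocytes. Trib2 encodes a Tribbles pseudokinase, a scaffold that brings substrates such as C/EBPα to the ubiquitin ligase COP1 for destruction. Ociad2 encodes a small mitochondrial membrane protein with an OCIA domain, related to Ociad1, which in human cells takes part in assembly of respiratory complex III.

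The genes lie on different chromosomes, each on the minus strand of mm10 (GRCm38). Adamts14 (ENSMUSG00000059901.12) spans chromosome 10, 61197112 to 61273438, and Ccl9 (ENSMUSG00000019122.8) chromosome 11, 83572919 to 83578636. Ociad2 (ENSMUSG00000029153.11) spans chromosome 5, 73322199 to 73341028, and Trib2 (ENSMUSG00000020601.8) chromosome 12, 15791727 to 15816922. The only annotated gene overlapping any of them was the microRNA gene Mir6387, inside Trib2 on the same strand (15800994 to 15801101). Since all 4 genes were chosen for low values with ADAR2 WT, the 250 bases before each RefSeq start (GRCm38.p6) are shown, at chr10:61273420-61273669 for Adamts14, chr11:83578637-83578886 for Ccl9, chr5:73338948-73339197 for Ociad2 and chr12:15816786-15817035 for Trib2. Each is written 5′ to 3′ on the gene's own minus strand. Capitals mark matches, on either strand, to the GC box GGGCGG in Adamts14 and Trib2, to the TATA box TATAAA in Ccl9 and Ociad2, and to the CCAAT box CCAAT in Ociad2.
Adamts14: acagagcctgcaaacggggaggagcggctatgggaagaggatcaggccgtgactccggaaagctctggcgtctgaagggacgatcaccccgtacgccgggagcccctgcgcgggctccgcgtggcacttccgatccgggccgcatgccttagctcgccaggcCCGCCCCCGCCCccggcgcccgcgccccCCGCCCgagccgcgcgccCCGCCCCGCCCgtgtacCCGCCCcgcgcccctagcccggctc
Ccl9: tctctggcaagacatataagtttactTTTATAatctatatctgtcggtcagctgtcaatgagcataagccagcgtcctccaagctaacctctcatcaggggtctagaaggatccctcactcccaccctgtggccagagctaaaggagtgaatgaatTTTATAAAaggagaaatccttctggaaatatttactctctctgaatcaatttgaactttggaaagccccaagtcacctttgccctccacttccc
Ociad2: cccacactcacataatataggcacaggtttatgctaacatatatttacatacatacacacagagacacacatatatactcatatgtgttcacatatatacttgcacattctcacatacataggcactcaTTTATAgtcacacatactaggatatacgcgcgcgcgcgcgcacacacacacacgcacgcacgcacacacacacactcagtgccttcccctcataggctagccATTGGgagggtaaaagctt
Trib2: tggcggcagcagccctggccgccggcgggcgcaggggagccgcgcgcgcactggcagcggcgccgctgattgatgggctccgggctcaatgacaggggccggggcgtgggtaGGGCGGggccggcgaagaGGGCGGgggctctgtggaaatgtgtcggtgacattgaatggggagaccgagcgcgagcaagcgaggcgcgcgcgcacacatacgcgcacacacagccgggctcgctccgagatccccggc

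These 4 stretches were of different kinds. Those of Adamts14 and Trib2 were 76.4% and 73.6% G and C, with 35 and 34 CpG dinucleotides, against a median of 52.4% and 6 over 32851 RefSeq promoters of the same length. Those of Ccl9 and Ociad2 were 43.6% and 44.4% G and C, with 2 and 10 CpG. Adamts14 held 6 GC boxes and Trib2 held 2, a motif found in 32.7% of all promoters. Ccl9 held 3 TATA boxes, of which 2 overlap and begin 94 and 92 bases before the start, and Ociad2 held 1, 121 bases before it. A TATA box was found in 12.4% of promoters and a CCAAT box, of which Ociad2 held 1 at 19 bases, in 33.8%. None of the 4 held TTCNNNGAA, the palindrome bound by STAT proteins (7.02% of promoters), the ROR half-site AGGTCA (14.0%) or the Runx motif TGTGGT (14.0%), searched on both strands. A match is a description of these letters and not a measured binding site. GENCODE places the starts elsewhere for 3 of the genes. Its Ociad2 start lies 2081 bases upstream of the RefSeq start, so the Ociad2 stretch is inside the GENCODE gene. Its Trib2 and Adamts14 starts lie 137 and 19 bases inside the stretch shown.

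All 4 genes were lower in both ADAR2 WT libraries than in either empty-vector library, which the choice of genes fixes. Over all genes 18.5% had this order, and 17.3% had both ADAR2 WT libraries below both ADAR2 E396A libraries. Adamts14 had 26.2 and 11.5 normalized counts with ADAR2 WT, 100.5 and 40.1 with ADAR2 E396A, and 92.7 and 67.2 with the empty vector, in donors A and B in that order, which holds for all such pairs below. Both ADAR2 WT libraries were below the other 4, while the ADAR2 E396A libraries lay on either side of the empty-vector pair. The library of donor B with ADAR2 WT rested on 10 Adamts14 reads, with an exact Poisson interval at 95% of 4.80 to 18.4 that covers counting error only. The fitted log2 fold change of ADAR2 WT over the empty vector was -2.11 (SE 0.28), which is 4.33-fold lower.

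Ccl9 had 50.5 and 27.7 normalized counts with ADAR2 WT, 158.6 and 47.1 with ADAR2 E396A, and 187.5 and 98.4 with the empty vector. The chemokine gene was below both empty-vector values in both ADAR2 WT libraries, but the ADAR2 E396A library of donor B was below the ADAR2 WT library of donor A. Its log2 fold change with ADAR2 WT over the empty vector was -1.83 (SE 0.25), or 3.56-fold lower, and was almost alike in the 2 donors, at -1.87 and -1.79.

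Ociad2 had 36.9 and 31.2 normalized counts with ADAR2 WT, 73.9 and 58.4 with ADAR2 E396A, and 109.3 and 80.8 with the empty vector. The 3 groups did not overlap, and those with ADAR2 E396A lay between the other two. Over all genes, ADAR2 WT lay wholly below the empty vector in 18.5% and below ADAR2 E396A in 17.3%. ADAR2 E396A lay wholly below the empty vector in 11.9%. Its log2 fold change with ADAR2 WT over the empty vector was -1.44 (SE 0.21), or 2.72-fold lower, and it had the smallest difference between donors of the 4 genes.

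Trib2 had 159.2 and 77.3 normalized counts with ADAR2 WT, 371.4 and 256.3 with ADAR2 E396A, and 536.3 and 171.4 with the empty vector. Both ADAR2 WT libraries were below the other 4, and the empty-vector pair was the widest, enclosing both ADAR2 E396A values. Its log2 fold change with ADAR2 WT over the empty vector was -1.44 (SE 0.23), or 2.72-fold lower, with -1.75 in donor A and -1.14 in donor B. Fewer cells of a type and less RNA per cell cannot be told apart in bulk samples such as these, for this or any gene below.

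**Figure D1:**
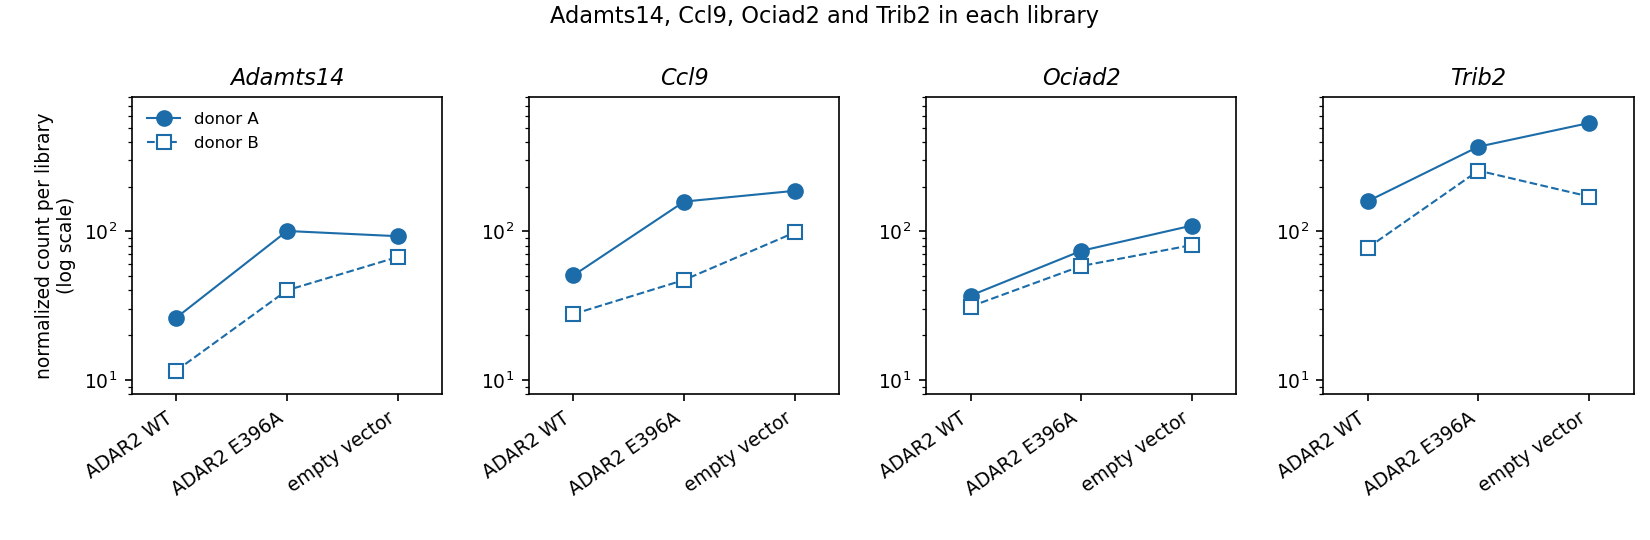
Normalized count (log axis) of Adamts14, Ccl9, Ociad2 and Trib2 in each of the 6 libraries, with ADAR2 WT, ADAR2 E396A and the empty vector from left to right. Filled circles are donor A and open squares donor B, each donor's 3 libraries joined by a line. The ADAR2 WT library is the lowest of the 3 in each donor for every gene, and donor A lies above donor B throughout.

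In the same fit 56 of 14958 tested genes, or 0.374%, were lower with ADAR2 WT than with the empty vector at a limma adjusted p under 0.05, and 122, or 0.816%, differed in either direction. Both ADAR2 WT libraries lay below both empty-vector libraries in 18.5% of all genes and in 4 of the 4 genes, which the choice of genes fixes. The median log2 fold change was -1.64 over the 4 genes and -0.00249 over all genes tested. By size, among the 53 protein-coding genes called lower whose mean normalized count was 50 or more, Adamts14 ranked 3, Ccl9 5, Ociad2 8 and Trib2 9. In the authors' deposited table, where fold changes run from ADAR2 WT to the empty vector, the log2 values were 2.15 for Adamts14, 1.86 for Ccl9, 1.47 for Ociad2 and 1.47 for Trib2. The adjusted p of Ociad2 in the authors' deposited table was 0.1003, so it is the one gene of the 4 above 0.05 there. Without the donor term 2 genes in all passed limma's test in place of 122, and leaving out 1 library gave between 1 (ADAR2 WT of donor A) and 1217 (ADAR2 E396A of donor B).

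Per length, the genes were of low to middling abundance. Trib2 averaged 4.95 ± 2.27 TPM, a share of all transcripts corrected for gene length, with ADAR2 WT, 13.3 ± 3.15 with ADAR2 E396A and 14.7 ± 10.3 with the empty vector (SD, n = 2 each). Ccl9 averaged 2.33 ± 0.884, 6.19 ± 4.64 and 8.49 ± 3.46 TPM in the same 3 groups (SD, n = 2). Ociad2 averaged 2.28 ± 0.190, 4.48 ± 0.635 and 6.34 ± 1.12 TPM there (SD, n = 2). Adamts14 was the lowest, with 0.659 ± 0.342, 2.48 ± 1.46 and 2.79 ± 0.529 TPM (SD, n = 2). With the empty vector the order of mean level was thus Trib2, Ccl9, Ociad2 and Adamts14, with 50.7%, 40.3%, 35.5% and 23.5% of tested genes below them. Neighbours in that order differed by less than the SD of the higher one in 2 of 3 cases, the exception being Ociad2 over Adamts14.

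With the enzymatically dead form none of the 4 genes passed, and the log2 fold changes over the empty vector lay between -0.64 and 0.02. This comparison asked what the protein does without its deaminase activity, and it shares the empty-vector libraries with the one that chose the genes. That choice favours genes with high empty-vector values. The comparison is thus not independent of the choice, which favours lower values with ADAR2 E396A. For Ccl9 the log2 fold change, ADAR2 E396A over the empty vector, was -0.64 (95% interval -1.22 to -0.07) and Ociad2 of -0.51 (-0.99 to -0.03). Adamts14 had -0.31 (-0.95 to 0.33) and Trib2 had 0.02 (-0.49 to 0.54). Each had a limma adjusted p of 0.999, where 2 of all 14958 genes, or 0.0134%, passed. At an unadjusted p under 0.05, Ccl9 and Ociad2 were lower, 2 of the 4 genes, against 1.78% of all genes, and edgeR and DESeq2 with the donor term also called 0 of the 4.

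The donors went different ways with ADAR2 E396A for 2 of the genes. Within donor A the log2 difference from the empty vector was 0.12 for Adamts14 and -0.53 for Trib2. Within donor B it was -0.73 for Adamts14 and 0.58 for Trib2. For Ccl9 it was -0.24 in donor A and -1.05 in donor B, and for Ociad2 -0.56 and -0.46, so that these 2 genes were lower with ADAR2 E396A in both donors. The fitted value of Adamts14 was 0.072 without donor B's empty-vector library, and that of Trib2 was -0.40 without that library and -0.37 without donor B's ADAR2 E396A library. Of the 4 genes, 1 (Ociad2) had both ADAR2 E396A libraries below both empty-vector libraries, against 11.9% of all genes.

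Set against the dead form, all 4 genes were lower with ADAR2 WT in both donors, but none passed limma's test over all genes. The comparison asks what goes with the active site, and it shares the ADAR2 WT libraries with the comparison that chose the genes, so it is not independent of that choice. Adamts14 had a log2 difference of ADAR2 WT over ADAR2 E396A of -1.81 (SE 0.28, limma adjusted p = 0.0747), 3.50-fold lower. Trib2 had -1.47 (SE 0.23, limma adjusted p = 0.0747), 2.76-fold lower. The other two were nearer to 0, Ccl9 with -1.19 (SE 0.25, limma adjusted p = 0.15) and Ociad2 with -0.93 (SE 0.21, limma adjusted p = 0.161).

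Within donor A these log2 differences between ADAR2 WT and ADAR2 E396A were -1.90 for Adamts14, -1.63 for Ccl9, -0.98 for Ociad2 and -1.22 for Trib2. Within donor B they were -1.71, -0.74, -0.89 and -1.72 for the same genes. Over all genes 10, or 0.0669%, passed, and at an unadjusted p under 0.05 the 4 genes were all lower, against 5.96% of all genes. Both ADAR2 WT libraries lay below both ADAR2 E396A libraries for 3 of the 4 genes, against 17.3% of all genes, Ccl9 being the one that overlapped. Adamts14 and Trib2 passed with DESeq2 (adjusted p = 0.0332 and 7.46e-05) and with TMM scaling in limma (adjusted p = 0.043 and 0.0389), and edgeR called 0 of the 4. Ccl9 passed as well, giving 3 genes, when either empty-vector library was left out, or donor B's ADAR2 E396A library, and 2 genes passed without donor A's ADAR2 E396A library. The call thus turns on the tool and on single libraries.

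**Figure D2:**
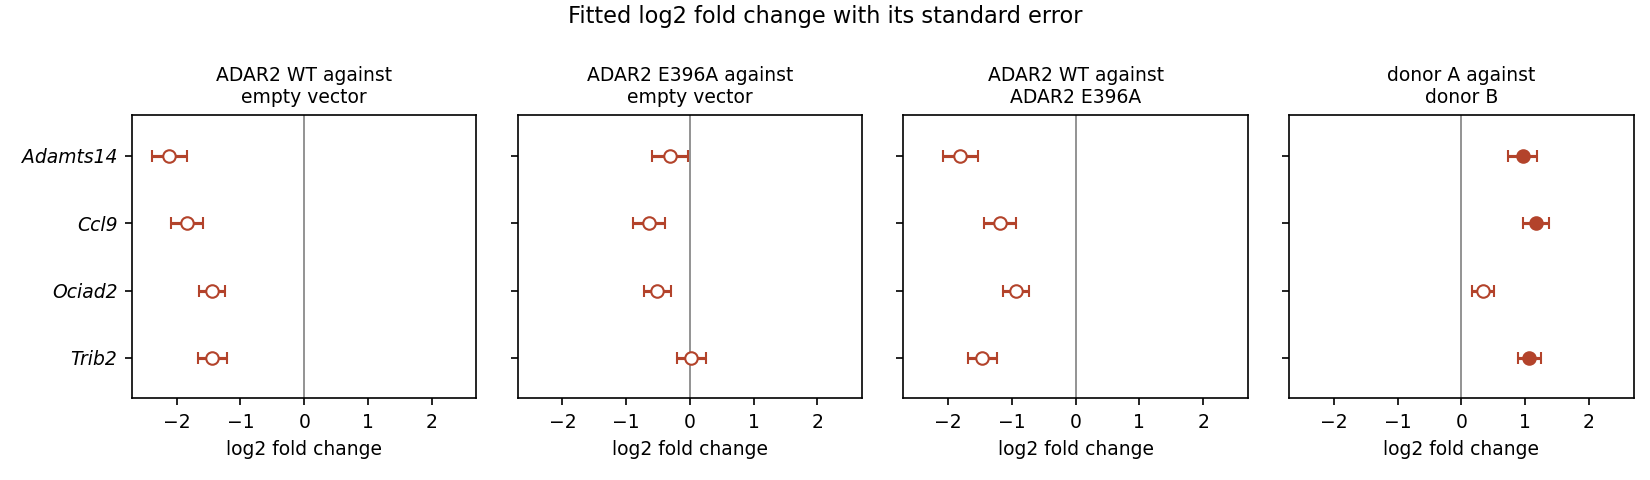
Fitted log2 fold change of the 4 genes with its standard error (bars) for ADAR2 WT over empty vector, ADAR2 E396A over empty vector, ADAR2 WT over ADAR2 E396A, and donor A over donor B. Filled points had a limma adjusted p below 0.05, and the first panel has no test because it chose the genes. The points lie between -2.11 and -1.44 in the first panel, between -0.64 and 0.02 in the second and between -1.81 and -0.93 in the third.

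The level of these genes also differed between the donors, a difference that the choice of genes did not use. The donor test, however, shares its libraries and each gene's estimate of spread with the comparison that chose them. It is therefore not independent of that choice. Across the 3 groups, all 4 genes were higher in donor A than in donor B in every group. Ccl9 was 2.24-fold higher in donor A (log2 1.17, SE 0.21, limma adjusted p = 0.0132) and Trib2 2.10-fold (1.07, SE 0.18, limma adjusted p = 0.0124). Adamts14 was 1.95-fold higher (0.96, SE 0.23, limma adjusted p = 0.0408). Ociad2 had 0.33 (SE 0.17, limma adjusted p = 0.3) and did not pass. So 3 of the 4 passed, against 3.8% of all genes called higher in donor A and 7.51% called in either direction, and the median log2 difference was 1.01 over the 4 genes and 0.00139 over all.

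The size of the donor difference varied with the group, without a test of that variation. For Trib2 it was 1.03 on the log2 scale with ADAR2 WT, 0.53 with ADAR2 E396A and 1.64 with the empty vector. For Adamts14 it was 1.12, 1.30 and 0.46 in the same groups, and for Ccl9 0.84, 1.73 and 0.92. Without the ADAR2 WT library of donor A none of the 4 passed, at adjusted p of 0.0805 for Ccl9, 0.13 for Trib2 and 0.272 for Adamts14. Without that of donor B only Ccl9 did, and without donor A's ADAR2 E396A library, or with DESeq2, Adamts14 did not (adjusted p = 0.0932 and 0.154). Each donor is a single mouse, so a mouse and its culture cannot be told apart. The Th17 cytokine gene Il17a was lower in donor A, by a log2 difference of -2.05 (limma adjusted p = 0.00146), and its part in the donor difference of these genes was not tested. The T cell marker genes Cd3d (0.29, limma adjusted p = 0.026) and Cd3g (0.37, limma adjusted p = 0.0451) were higher in donor A, as the 4 genes were, and their part was not tested either. Both calls were lost without the ADAR2 WT library of donor A (adjusted p = 0.313 for Cd3d and 0.289 for Cd3g) or donor B (0.275 and 0.233). That of Cd3g was also lost without donor B's empty-vector library (0.0517) and with DESeq2 (0.229).

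Among the relatives and partners of the 4 genes, on 6 lists, the chemokine receptor genes Ccr1 and Ccr4 passed in ADAR2 WT against the empty vector and no other did. The same 2 passed with edgeR and with DESeq2. The counts at an unadjusted limma p under 0.05 that follow for these lists stand against 14.1% of all genes in this comparison. Of 19 ADAMTS protease genes 6 could be tested, and none of the 5 others passed, with log2 fold changes between -0.28 (Adamts6) and 1.22 (Adamts20) and a median of 0.55, though 3 of the 5 had an unadjusted limma p under 0.05. Adamts3, the procollagen-cutting relative that was expressed, had 204.9 and 339.2 normalized counts with ADAR2 WT, 123.1 and 230.1 with ADAR2 E396A, and 148.9 and 217.2 with the empty vector. It was highest with ADAR2 WT within each donor, opposite to Adamts14, but did not pass (log2 fold change 0.55, SE 0.14, limma adjusted p = 0.141). Adamts2 had 0.872 normalized counts in 1 library and 0 in the other 5. Adamts10, the most abundant tested relative per length at 13.3 ± 2.42 TPM with the empty vector (SD, n = 2), had a log2 fold change of -0.02 (limma adjusted p = 0.964). None of 6 tested genes of procollagen processing and fibrillar collagens passed (median -0.22, 2 at an unadjusted limma p under 0.05), among them Bmp1, which cuts the other end of procollagen, at -0.39 (limma adjusted p = 0.525).

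Of 20 CC chemokine genes 8 could be tested, and none of the 7 others passed with ADAR2 WT against the empty vector (median -0.27, 5 negative, 3 at an unadjusted limma p under 0.05). Ccl27a, at 5 to 31 reads, had 9.71 and 5.77 normalized counts with ADAR2 WT, 30.5 and 12.2 with ADAR2 E396A, and 16.7 and 18.5 with the empty vector. Its ADAR2 WT pair was the lowest, and that pair lay below the empty-vector pair in 18.5% of all genes. Ccl3 and Ccl4, the inflammatory chemokines of the same cluster, had log2 fold changes of -0.47 (limma adjusted p = 0.201) and -0.57 (limma adjusted p = 0.145). Ccl5 had 0.38 (limma adjusted p = 0.383). Ccl3 was far more abundant than Ccl9 per length, at 92.4 ± 17.4 TPM with ADAR2 WT, 104.3 ± 11.1 with ADAR2 E396A and 127.4 ± 18.3 with the empty vector (SD, n = 2 each). Ccl6, the closest relative and neighbour of Ccl9, was too low to test, with 0 to 27.6 normalized counts. Ccl7, Ccl8, Ccl11, Ccl12, Ccl19 and Ccl26 had 0 reads in all 6 libraries.

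Ccr1, the receptor gene for the Ccl9 product, fell with ADAR2 WT. Ccr1 had 235.0 and 143.1 normalized counts with ADAR2 WT, 409.8 and 254.5 with ADAR2 E396A, and 433.2 and 220.1 with the empty vector. In each donor the ADAR2 WT value was the lowest. Across donors the empty-vector pair overlapped with each of the other pairs. Both Ccr1 values with ADAR2 WT were below both with ADAR2 E396A, as in 17.3% of all genes. Its log2 fold change with ADAR2 WT over the empty vector was -0.75 (SE 0.13, limma adjusted p = 0.0434), 1.68-fold lower, and with ADAR2 WT over ADAR2 E396A -0.81 (limma adjusted p = 0.0747). With ADAR2 E396A over the empty vector it was 0.06 (limma adjusted p = 0.999). Like Ccl9, Ccr1 was higher in donor A, by 0.79 on the log2 scale (SE 0.10, limma adjusted p = 0.00454), a call lost without the ADAR2 WT library of donor A (adjusted p = 0.0627).

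Of the 9 CC chemokine receptor genes tested, of 14 listed, Ccr4, a receptor of helper T cells, rose by 0.43 (SE 0.07, limma adjusted p = 0.0426). The other 7 did not pass, and the median of the 9 was 0.09. Of the 9, 4 had an unadjusted limma p under 0.05 in ADAR2 WT against the empty vector, against 14.1% of all genes. Ccr1 and Ccr4 were among these. The calls of Ccr1 and Ccr4 were lost without the donor term (adjusted p = 0.8 and 0.66). They were also lost without donor A's ADAR2 WT library (0.851 and 0.883), donor B's ADAR2 WT library (0.32 and 0.469) or donor A's empty-vector library (0.227 and 0.109), where each pair is the adjusted p of Ccr1 and of Ccr4. In the authors' deposited table, which runs from ADAR2 WT to the empty vector, Ccr1 had a log2 fold change of 0.76 with an adjusted p of 0.111.

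Of 23 genes of the Tribbles and COP1 pathway 21 could be tested, and none of the 20 others passed (median 0.01, 5 at an unadjusted limma p under 0.05). For Trib1, the relative that also works through COP1, the log2 value of ADAR2 WT over the empty vector was 0.37 (SE 0.14, limma adjusted p = 0.308), and Trib3 had 0.15 (SE 0.19, limma adjusted p = 0.772). Cop1, the ligase itself, had 1031 and 968.0 normalized counts with ADAR2 WT, 948.7 and 898.7 with ADAR2 E396A, and 859.2 and 948.5 with the empty vector. Both ADAR2 WT values were above all the others, while the ADAR2 E396A and empty-vector pairs overlapped. Over all 14958 genes, 2795 had both ADAR2 WT libraries above both empty-vector libraries, and 2902 above both ADAR2 E396A libraries. The C/EBP substrate gene Cebpa had 0 to 3.90 normalized counts in the 6 libraries. All 19 genes of the OCIA domain, prohibitin and complex III list were tested, and none of the 18 others passed (median 0.02, 1 at an unadjusted limma p under 0.05). Ociad1, the other OCIA domain gene, had 2433 and 2499 normalized counts with ADAR2 WT, 2334 and 2394 with ADAR2 E396A, and 2482 and 2528 with the empty vector. Per length Ociad1 stood at 81.9 ± 4.53 TPM with ADAR2 WT, against the 2.28 TPM of Ociad2 there, and it had a log2 fold change with ADAR2 WT over the empty vector of -0.02 (95% interval -0.17 to 0.12, limma adjusted p = 0.907). In ADAR2 WT against ADAR2 E396A and in ADAR2 E396A against the empty vector none of the others on these 6 lists passed limma's or edgeR's test, and DESeq2 called Ccr1 in the first of these (adjusted p = 0.0282). There 4 of the 5 other ADAMTS genes (median 0.64) and 5 of the 9 receptor genes (median 0.08) had an unadjusted limma p under 0.05. So did 1 of 6 procollagen, 2 of 7 chemokine, 3 of 20 Tribbles and 1 of 18 OCIA list genes, against 12.4% of all genes. With ADAR2 E396A against the empty vector 2 of the 9 receptor genes did and 0 on each other list, against 582 of all 14958 genes.

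**Figure D3:**
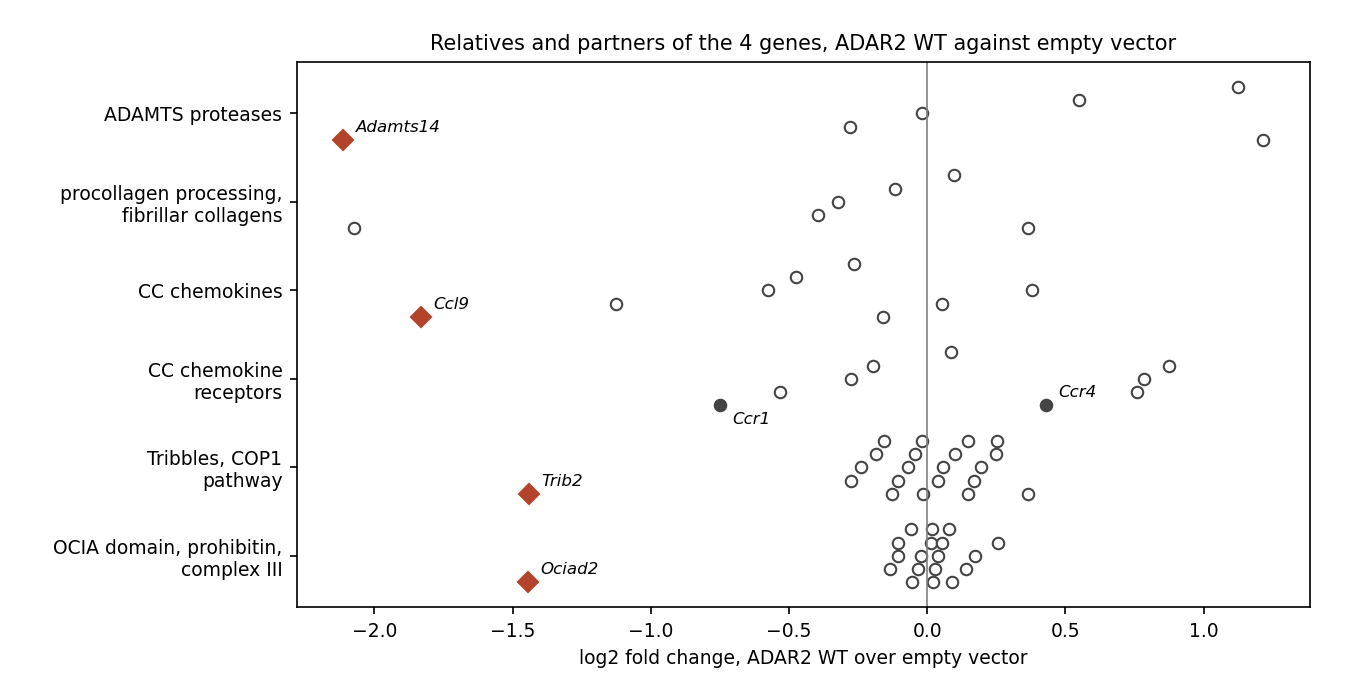
Log2 fold change of ADAR2 WT over empty vector for every tested member of 6 gene lists, 1 list per row with points spread vertically for legibility. Red diamonds are the 4 genes, filled circles passed limma's test and open circles did not. In the Tribbles and OCIA rows Trib2 and Ociad2 lie to the left of all other points, and Ccr1 and Ccr4 are the only filled circles.

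Between the donors 11 genes of these lists, other than the 4, passed limma's test, where 7.51% of all genes passed. Ccr1, given above, and Foxo1, a transcription factor gene (log2 difference 0.56, adjusted p = 0.002), were higher in donor A, as were Adamts14, Ccl9 and Trib2. The 9 lower ones, against 3.71% of all genes called lower in donor A, included the chemokine genes Ccl20 (-3.08, adjusted p = 0.00783) and Ccl22 (-1.58, adjusted p = 0.014), the collagen gene Col5a3 (-1.66, adjusted p = 0.000595) and the receptor gene Ccr6 (-1.15, adjusted p = 0.00668), with Ccr7, Ccrl2, Cebpd and Map2k1 at -0.52, -1.15, -0.53 and -0.27. Adamts3 was the other, being lower in donor A by a log2 difference of -0.72 (SE 0.11, limma adjusted p = 0.00934). That call was lost without the ADAR2 WT library of donor A (adjusted p = 0.118) or B (adjusted p = 0.094).

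Genes lying near the 4 on the chromosome were looked at next. Within 250 kb there were 28 protein-coding genes, of which 14 could be tested and none passed in ADAR2 WT against the empty vector with limma (7 at an unadjusted p under 0.05, against 14.1% of all genes) or edgeR, and 1 with DESeq2. Prf1, which encodes the pore-forming protein perforin of cytotoxic cells, lies 24.4 kb from Adamts14 on the opposite strand. It had 63.1 and 70.4 normalized counts with ADAR2 WT, 342.8 and 145.6 with ADAR2 E396A, and 298.9 and 119.8 with the empty vector. Both ADAR2 WT libraries were below the other 4, as for Adamts14. Over all genes 18.5% had both below the empty-vector pair, and 17.3% below the ADAR2 E396A pair. The log2 fold change of Prf1 with ADAR2 WT over the empty vector was -1.49 (SE 0.32, limma adjusted p = 0.0898). Against ADAR2 E396A it was -1.73 (limma adjusted p = 0.112), and DESeq2 called Prf1 there. Of the 14 tested neighbours 5 had an unadjusted limma p under 0.05 in that comparison, against 12.4% of all genes. Between donors Prf1 was called by edgeR and DESeq2 and not by limma. It was higher in donor A with ADAR2 E396A and the empty vector, and lower in donor A with ADAR2 WT. Prf1 passed against the empty vector with DESeq2 (adjusted p = 0.00257) and with limma without the filter on low values (adjusted p = 0.0258). Prf1 was named as the nearest gene on its side, as was Tbata on the other side, 8.27 kb away, which had 0 reads in all 6 libraries.

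Around Ociad2 all 4 neighbours were tested. Ociad1 lies 8.13 kb away, and for Cwh43, the nearest gene on the other side at 65.0 kb, the log2 value was -1.20 (SE 0.30, limma adjusted p = 0.137). Cwh43 had 38.8 and 33.5 normalized counts with ADAR2 WT, 59.1 and 76.7 with ADAR2 E396A, and 114.6 and 61.4 with the empty vector, so its ADAR2 WT libraries were below the other 4. The ADAR2 WT pair lay below the empty-vector pair in 18.5% of all genes and below the ADAR2 E396A pair in 17.3%. Around Ccl9, 6 of 16 neighbours were tested, and the nearest were Ccl6 at 9.25 kb and Ccl5 at 42.4 kb. Trib2 had no protein-coding gene within 250 kb.

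**Figure D4:**
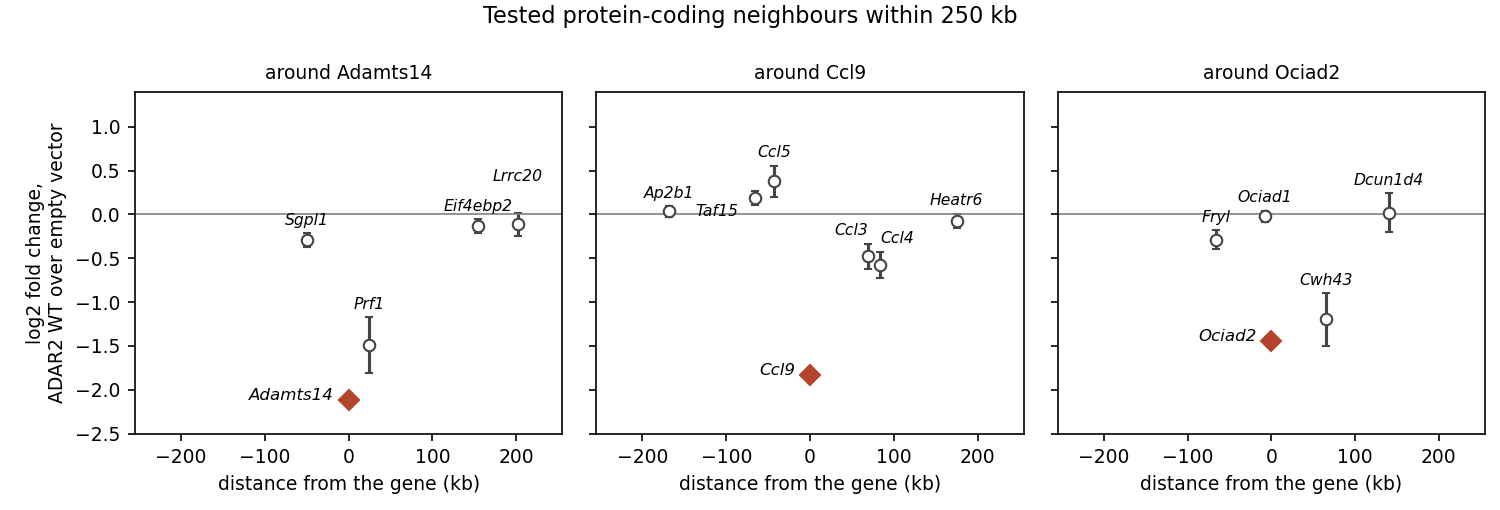
Log2 fold change of ADAR2 WT over empty vector against distance in kb for the tested protein-coding genes within 250 kb of Adamts14, Ccl9 and Ociad2, with standard errors as bars. Red diamonds are the 3 genes themselves at distance 0, and Trib2 has no such neighbour. Prf1 at -1.49 and Cwh43 at -1.20 lie lowest among the neighbours, and none passed limma's test.

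The genes whose levels moved most like each of the 4 were ranked by Pearson's r over the 6 libraries after the mean of each donor was removed, among 10033 protein-coding genes. With so few libraries high values are common, and the libraries include those that chose the genes, so these are a description. Closest to Adamts14 were Arhgef4 (r = 0.998), Prag1 (r = 0.995) and Rps12 (r = 0.995). Closest to Ccl9 were Xkr5 (r = 0.998), Abcb9 (r = 0.996) and Washc4 (r = 0.996). For Ociad2 they were Pdrg1 (r = 0.995), Qdpr (r = 0.995) and Xylt2 (r = 0.994), and for Trib2 Rnf111, Spice1 and Dok1 (each r = 0.998). The closest genes were similar in pattern and not in size: Rnf111 had 1387 and 1413 normalized counts with ADAR2 WT, 1526 and 1612 with ADAR2 E396A, and 1581 and 1555 with the empty vector. Between the 4 genes themselves r ran between 0.794 for Ccl9 with Trib2 and 0.966 for Ccl9 with Ociad2.

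Ccl9 is known from myeloid cells, so markers of other cell types were set beside these values. Of 11 myeloid markers 3 could be tested and none passed between constructs. Their sum was 83.5 and 114.2 normalized counts with ADAR2 WT, 69.0 and 100.2 with ADAR2 E396A, and 78.1 and 108.1 with the empty vector, groups that overlapped. The 3 tested had a median log2 value of 0.76 with ADAR2 WT over the empty vector, with 0 at an unadjusted limma p under 0.05. Over ADAR2 E396A it was 1.11, with 2 of the 3 at that p, against 12.4% of all genes. In each comparison 1 of the 3 was negative, and their part in the Ccl9 values was not tested. S100a8 was at 0 in all libraries, and Lyz2 and Csf1r reached 4.87 and 7.29 normalized counts at most. Between donors Cd14 was lower in donor A (log2 difference -1.65, limma adjusted p = 0.0428), a call lost with DESeq2 (adjusted p = 0.155) and without either donor's ADAR2 WT library (0.131 for donor A's and 0.117 for donor B's) or empty-vector library (0.131 and 0.209). The dendritic cell markers, with Clec9a and Siglech at 0 and none of 3 tested passing, summed to 148.8 to 197.0 over the 6 libraries. The CD8 and NK cell markers summed to 193.2 and 188.1 normalized counts with ADAR2 WT, 207.9 and 200.5 with ADAR2 E396A, and 212.4 and 220.1 with the empty vector. These 3 pairs did not overlap and were lowest with ADAR2 WT, though none of the 4 tested of 6 listed passed and Ncr1 was at 0. Most of that sum was Cd8b1, with 158.3 and 141.9 normalized counts with ADAR2 WT, 132.0 and 111.6 with ADAR2 E396A, and 149.96 and 112.0 with the empty vector. Its log2 fold change with ADAR2 WT over the empty vector was 0.21 (limma adjusted p = 0.59), while the other 3 had negative values, Klre1 with -1.14 (limma adjusted p = 0.252), Eomes with -0.78 (limma adjusted p = 0.415) and Cd8a with -0.46 (limma adjusted p = 0.749). The median of the 4 was -0.62 with ADAR2 WT over the empty vector, with 1 at an unadjusted limma p under 0.05. With ADAR2 WT over ADAR2 E396A it was -0.84, with 2 at that p, against 12.4% of all genes, and the part of these markers in the lower values of the 4 genes and of Prf1 was not tested. The stromal markers, 2 of 7 tested, summed to 216.5 and 679.6 normalized counts with ADAR2 WT, 114.3 and 658.1 with ADAR2 E396A, and 146.8 and 561.9 with the empty vector. They went with the donor, higher in donor B and so opposite to the 4 genes, and their part in the donor difference was not tested. Nearly all of that sum was Lum, a proteoglycan gene, with 190.3 and 649.6 normalized counts with ADAR2 WT, 105.4 and 634.6 with ADAR2 E396A, and 131.2 and 537.6 with the empty vector. Lum passed between donors with limma (log2 difference -2.12, adjusted p = 0.000424), edgeR and DESeq2. Of 5 B cell markers 2 could be tested, with Ms4a1 at 0, and of 4 mast cell and basophil markers none, with Ms4a2 at 0. Of 4 platelet and 4 erythroid markers 1 each could be tested, and none of these passed.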

How the data were processed

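Reads were processed with STAR 2.6.1a, featureCounts and DESeq2 1.18.1 on mm10, per the submitters' processing notes. Settings, strandedness and gene models were not given in the sources used here. For each construct the authors deposited a table of normalized counts of 4 libraries, a signal of 0 or more. Beside them, per the file headers, stand the authors' DESeq2 results: a log2 fold change (empty vector over construct), a Wald score and a p-value, raw and adjusted. Whole reads, 100% of values above 0 within 0.001 read, were recovered from the deposited normalized counts. All 55450 gene identifiers matched GENCODE vM21.

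No library column names its group or donor. Columns shared by both tables were read as empty vector, the rest by the table's name. Donors were paired from the deposited Wald statistics: a DESeq2 refit with that pairing differed by at most 0.0001, against 6.67 and 2.03 (ADAR2 WT and ADAR2 E396A) without a donor term and 13.8 and 6.08 with donors crossed. The labels' replicate numbers could not be tied to the donors. Donors are separate mice, and the p-values measure the spread between these libraries after the donor term.

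Reads of the 6 libraries were scaled by median-of-ratios factors and filtered with edgeR's filterByExpr, which all 4 genes passed among 14958. They were tested as log2 of normalized count plus 1 with limma 3.58.1 (trended variance, R 4.3.3), in a model of group plus donor, with p-values adjusted over all genes by Benjamini-Hochberg at 0.05. On this scale changes of low genes come out too small. A count test had been foreseen for raw counts; edgeR 4.0.16 and DESeq2 1.42.0 were run on the recovered reads as alternatives. TPM used GENCODE exon lengths. The fit was tested on simulated data of the 3 comparisons of constructs, where more of the genes called at 0.05 were false than that threshold allows. Intervals of reads cover counting error only.

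The 4 genes and the gene lists were chosen with earlier results of these data known, and the donor comparison was added after the data were examined. Genes named were the 4, Adarb1, list members that passed or are close relatives or abundant relatives and receptors, neighbours nearest on each side, and the 3 most alike by Pearson's r among protein-coding genes whose mean normalized count was 50 or more. Bmp1, Cebpa, Ccl27a, Cwh43, Adamts6, Adamts20, Il17a, Cd3e, Cd4, Cd8a, Cd8b1, Klre1 and Eomes were named after their values were seen. A result was left out and is not reported here.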

Additional observations from a re-analysis of the deposited data

How the results depend on the processing

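The direction of the 4 genes was unchanged in 14 of 14 alternatives for ADAR2 WT over the empty vector and over ADAR2 E396A, with log2 values from -2.49 to -1.73 and -2.07 to -1.55 for Adamts14, -2.07 to -1.59 and -1.62 to -0.76 for Ccl9, -1.52 to -1.35 and -1.01 to -0.86 for Ociad2, and -1.87 to -1.01 and -1.87 to -1.07 for Trib2. For ADAR2 E396A over the empty vector none of the 4 passed in any alternative, and signs turned for Trib2 (-0.026 with edgeR, -0.40 to 0.45 with 1 library left out) and Adamts14 (-0.69 to 0.072 with 1 library left out). For ADAR2 WT against ADAR2 E396A, 0 of the 4 passed in the main fit, without the replicate block and with edgeR; 2 passed, Adamts14 and Trib2, with DESeq2, TMM factors, no filter on low values or only the 4 libraries compared, and 0 to 3 with 1 library left out. For donor A against donor B, 3 of the 4 passed, and 0 to 3 did with 1 library left out. Over all genes, ADAR2 WT against the empty vector called 122, and 2 without the replicate block, 215 with DESeq2, 220 without the filter, 1237 with only 4 libraries, and 1 to 1217 with 1 library left out. In that order ADAR2 E396A against the empty vector called 2, and 1, 7, 5, 1 and 1 to 127. ADAR2 WT against ADAR2 E396A called 10, and 0 without the block, 109 with DESeq2, 39 with TMM factors, 102 without the filter, 194 with 4 libraries and 0 to 844 with 1 left out; 0 without the block compares with 1853 genes at an unadjusted p under 0.05 in the main fit. The donor comparison called 1124, and 112 to 1701 with 1 left out. Among relatives and neighbours, signs turned with 1 library left out for Trib3 (ADAR2 WT over the empty vector, -0.24 to 0.54, and over ADAR2 E396A, -0.10 to 0.42), for Ccl3 (ADAR2 WT over ADAR2 E396A, -0.44 to 0.10), and, for ADAR2 E396A over the empty vector, for Trib3 (-0.40 to 0.39, and 0.00407 with TMM factors), Adamts3 (-0.23 to 0.039), Ccl4 (-0.22 to 0.25), Ccr1 (-0.070 to 0.20), Prf1 (-0.15 to 0.62) and Trib1 (-0.39 to 0.13). With the ADAR2 E396A library of donor B left out, Adamts3, Ccl3, Ccl4 and Trib1 passed in ADAR2 WT against the empty vector (limma adjusted p = 0.00633, 0.00104, 0.000551 and 0.0264). The cause of these changes was not tested. Where a group was left with 1 library, its spread was taken to equal that of the others. Limma fits with 1 library left out, or on only 4 libraries, kept 1 degree of freedom for a gene's own spread. Their p-values and calls thus lean on the spread taken over from other genes. Adamts14 rests on as few as 10 reads in a library, and 2 mice limit every comparison.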
